A study of Mus musculus with 3 samples.

Results

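Single-cell RNA sequencing of the D10 culture held a small cluster, cluster code 9 of the deposited data, with 53 of 7821 cells (0.678%, exact 95% interval 0.508 to 0.885). Its cells were chosen by that code alone, and were set against code 1, the largest cluster of the culture with 2964 cells, and against all 7768 other cells of the same library. The culture came from mESCs of ScxGFP mice, which carry a fluorescent reporter for *Scx*, the transcription factor that marks tendon cells. The mESCs were derived and maintained on irradiated mouse embryonic fibroblast feeders with serum and LIF. They were formed into embryoid bodies with the BMP inhibitor LDN-193189, specified toward paraxial mesoderm (PM) with LDN-193189 and the Wnt agonist CHIR until D6, and then cultured as a monolayer with TGFβ1, the smoothened agonist SAG and FGF2 until D10. The entire D10 culture was sequenced after removal of dead cells with Annexin V. Cells of an E14.5 mouse tail and of the D6 PM culture, 1 library each, were used for comparison. The D6 PM cells had received LDN-193189 and CHIR but no TGFβ1, SAG or FGF2. Because every condition is 1 library and cells are not replicates, no difference has a replicate check, and no test was made.

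Levels are given as CPM, the counts of a gene per 1000000 counts of all genes, after adding up the unique molecular identifiers (UMIs, one per captured transcript) of all cells in a cluster. Intervals in parentheses are exact 95% intervals and cover counting error only. A gene was called higher or lower when its CPM differed at least 2-fold, with at least 50 CPM in the higher group, among autosomal genes. Code 9 rests on 439035 UMIs, with a median of 8100 per cell (898 to 20590) and a median of 2747 genes. Code 1 rests on 16589854 UMIs, with a median of 4918.5 per cell. The median mitochondrial share of the code 9 cells was 2.28%. Scrublet called 0 of these 53 cells as doublets, and 116 of all 7821 culture cells. None of the 53 barcodes occurred in the tail or D6 PM library, where 4 and 10 of all culture barcodes did. At such low rates, 0 among 53 cells says little about code 9. The authors clustered the tail cells and assigned the culture cells to these clusters by their expression, so that the differences describe code 9 and are not independent of how its cells were chosen.

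Fibroblasts are the mesenchymal cells that secrete and remodel the collagen-rich matrix of connective tissue. No single gene defines them, and they are usually recognized by collagens I and III, small proteoglycans such as decorin, vimentin and surface proteins such as *Pdgfra* and *Thy1*. Tendon cells are specialized fibroblasts that share most of these genes and differ by *Scx* and by matrix proteins such as fibromodulin. The genes for S100 calcium-binding proteins, galectins and annexins are widely used in fibroblasts, and *Meg3* is a maternally expressed long noncoding RNA of the imprinted *Dlk1*-*Meg3* locus.

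The 4 marker genes did not behave alike. *S100a6*, a small calcium-binding protein, stood at 11908 CPM in code 9, 102 CPM in code 1 and 104 CPM in all other culture cells, a ratio to code 1 of 116 (110.0 to 123). It had a UMI in 52 of 53 cells, and its level in single cells ran from 0 to 89286 CPM with a median of 9609. *Meg3* was at 820.0 CPM against 71.6 in code 1, a ratio of 11.5 (10.1 to 12.9). Its UMIs came from only 22 of the 53 cells, however, and its median over cells was 0. Thinned to 3000 UMIs per cell, *Meg3* was seen in 17 of 36 code 9 cells (47.2%) and in 4.12% of code 1 cells. At 5000 UMIs it was seen in 58.8% and 5%, so that its share depends on depth. *Lgals1*, galectin-1, was found in all 53 cells, at 755 to 23422 CPM. At 4022 CPM against 2760.0 CPM its ratio to code 1 was 1.46 (1.39 to 1.53), short of the 2-fold limit, and against all other cells it was 2.67 (2.54 to 2.8). *Col1a1*, the main chain of collagen I, was at 2166 CPM in code 9 and 2741 CPM in code 1, a ratio of 0.79 (0.74 to 0.843) that does not reach the limit. Against all other culture cells its ratio was 1.49 (1.4 to 1.59), also short of the limit. Of these 4 genes, then, *S100a6* and *Meg3* set code 9 apart from code 1 by the rule, and *Lgals1* and *Col1a1* were within 2-fold of code 1. By the mean of single-cell levels the ratios were 203 for *S100a6*, 7.70 for *Meg3*, 2.08 for *Lgals1*, which then passed the limit, and 0.698 for *Col1a1*.

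Over the wider list of 15 fibroblast genes, all of which passed the filter, 6 were higher than in code 1, 3 were lower and the median log2 ratio was 0.54. For all 4484 genes tested against code 1, 14.52% were higher, 20.2% were lower (34.7% in either direction) and the median was -0.23. Relative to this median, 826 genes were higher and 652 lower, against 651 and 905 without that shift. *Vim*, the intermediate filament of mesenchymal cells, was higher at 7739.7 against 1875 CPM and was present in all 53 cells. *Fbln2*, a matrix glycoprotein, was higher at 1198 against 146 CPM, and *Thy1*, a surface protein, at 100.2 against 0.784 CPM. *S100a4*, also called fibroblast-specific protein, was at 150.3 CPM against 0.181 CPM with UMIs in 20 cells. The 3 lower genes were *Dcn* (681 against 1765 CPM), *Lum* (125 against 385 CPM) and the PDGF receptor *Pdgfrb* (36.4 against 92.6 CPM). *Col1a2*, *Col3a1*, *Pdgfra* and *Fn1* differed from code 1 by less than 2-fold. Against all other culture cells, which include clusters without this program, 8 of 14 tested fibroblast genes were higher and 0 were lower. No marker of muscle, endothelium or blood passed the filter against code 1. By its number of cells, however, code 9 is the cluster that the paper annotates as muscle. The paper's text also describes a rare cluster without *Scx* that expresses its other tendon markers. *Krt18* was the 1 epithelial gene that passed (203 against 16.8 CPM), and *Stmn2*, a microtubule regulator of neurons, the 1 neural gene (232 against 2.29 CPM, in 24 cells). The fibroblast genes were thus present, but code 1 held 9 of the 15 at levels within 2-fold or higher. Of the 15 genes with the largest ratio to code 1, *Lyz2*, *Ctss*, *Tyrobp* and *Trem2* are genes of macrophages and lay in a few cells only. The cluster is therefore called by its code. The others of the 15 were *Mmp3*, *Ly6a*, *Gm26870*, *Lgals3*, *S100a4*, *Npy*, *Ccl8*, *Gpnmb*, *Grem1*, *Gm10260* and *Gm15772*.

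**Figure D1:**
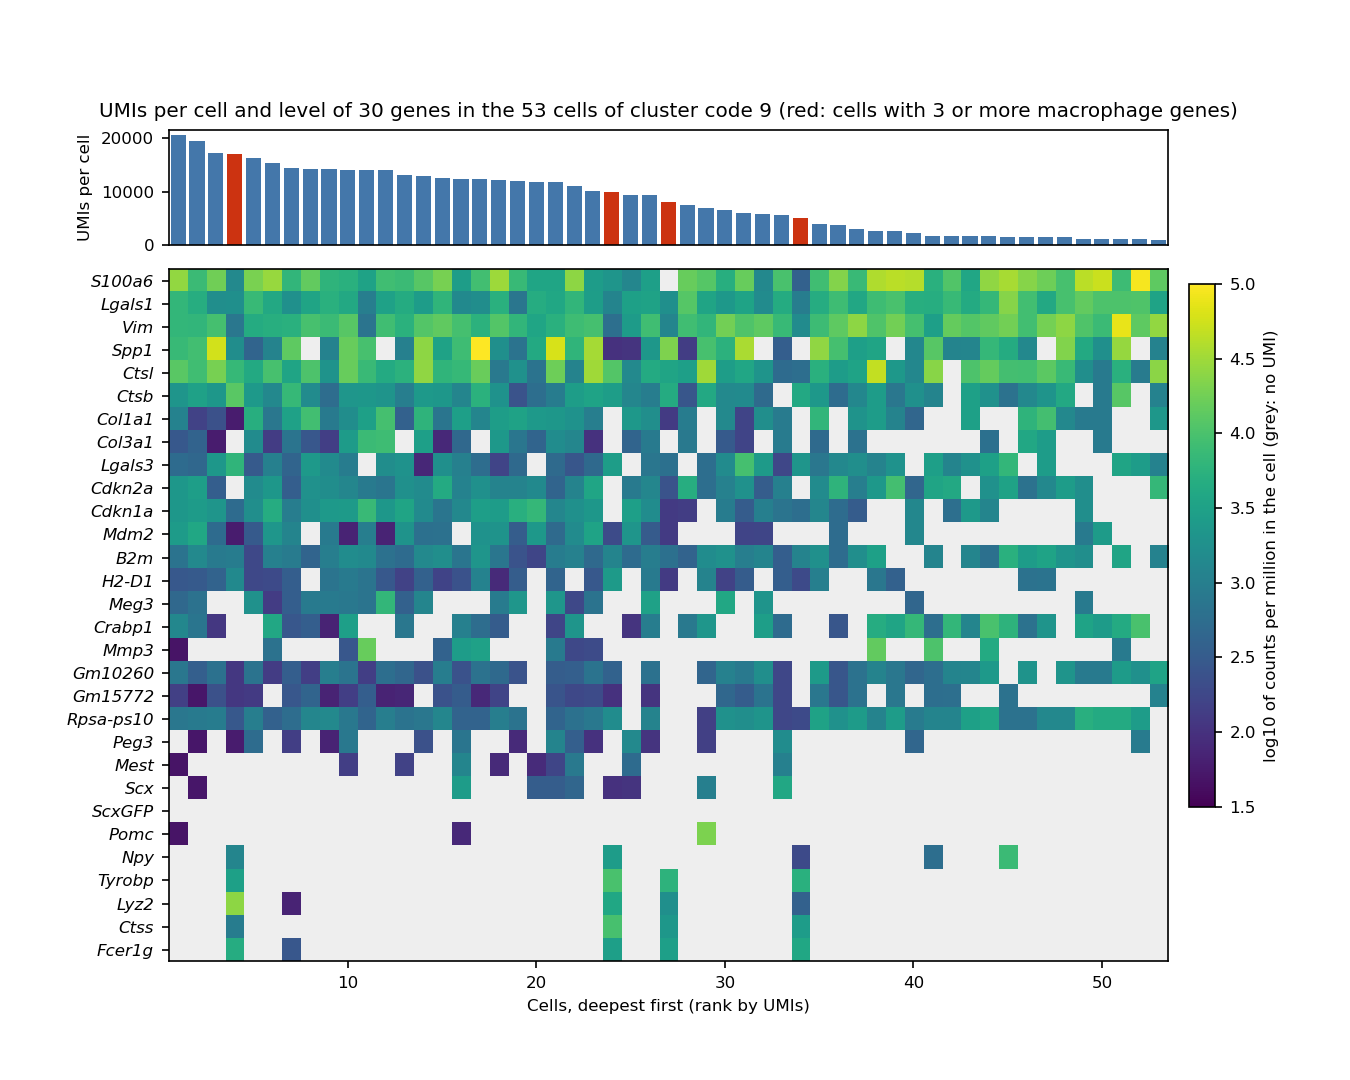
UMIs per cell (upper bars) and level of 30 genes (heat map, log10 of CPM in the cell, grey where there is no UMI) for the 53 cells of code 9, ordered from the deepest to the shallowest. *S100a6*, *Lgals1* and *Vim* fill nearly every column, *Meg3* and *Crabp1* fill only some, and the macrophage genes at the bottom fill the 4 columns drawn in red.

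In the cells of code 9, UMIs were also counted for processed copies of ribosomal protein genes, at levels far above those of code 1. Retrocopies are genes that arose by insertion of a reverse-transcribed mRNA, so that they have no introns and closely resemble their parent gene. *Gm10260* stood at 515 CPM in code 9 and at 1.39 CPM in code 1, a ratio of 371 (241 to 598), with UMIs in 46 of the 53 cells. At 3000 UMIs per cell it was seen in 63.9% of code 9 cells, 0.308% of code 1 cells and 0.185% of code 3 cells, and without thinning in 86.8%, 0.607% and 1.01%. *Gm15772* was at 166 against 0.482 CPM, and *Rpsa-ps10* at 870.1 against 36.8 CPM, with UMIs in 33 and 48 cells. In GENCODE M21 (GRCm38), *Gm10260* lies on chromosome 13, 97760072 to 97760632 on the minus strand, a single-exon gene annotated as protein coding, and matches *Rps18* of chromosome 17 over 545 bases with 99.1% identity. *Gm15772*, a processed pseudogene on chromosome 5, 3236431 to 3236868 on the plus strand, matches *Rpl26* of chromosome 11 over 438 bases with 99.5% identity. *Rpsa-ps10*, a processed pseudogene on chromosome 3, 150072658 to 150073542 on the minus strand, matches *Rpsa* of chromosome 9 over 885 bases with 99.3% identity. The build behind the deposited counts is not given in the sources used here, and the positions are those of this annotation. A window of 60 bases of each annotated transcript is printed beside the same stretch of its parent, because within the stretch that copy and parent share, a read can be assigned to one of them only where it covers one of their few differing bases. The capital marks the base that differs, given as G475A, T288C and G858A (the parent's base, the position from the first base of the retrocopy, the retrocopy's base).
Gm10260: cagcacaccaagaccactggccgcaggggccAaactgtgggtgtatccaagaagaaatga
Rps18: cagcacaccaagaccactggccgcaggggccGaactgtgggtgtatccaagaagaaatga
Gm15772: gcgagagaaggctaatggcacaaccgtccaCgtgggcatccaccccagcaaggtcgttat
Rpl26: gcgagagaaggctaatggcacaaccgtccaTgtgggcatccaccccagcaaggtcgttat
Rpsa-ps10: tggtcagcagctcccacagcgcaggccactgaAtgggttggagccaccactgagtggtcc
Rpsa: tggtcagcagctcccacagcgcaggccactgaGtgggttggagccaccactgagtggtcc

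Over the matched stretches, *Gm10260* differed from *Rps18* at 5 bases, *Gm15772* from *Rpl26* at 2 and *Rpsa-ps10* from *Rpsa* at 6. *Gm15772* and *Rpsa-ps10* match only the coding part of their parents, and the match of *Gm10260* covers 545 of its 561 bases. Reads that map to several genes were ignored in making the counts, so that UMIs of copy and parent come from reads that held a distinguishing base or reached beyond the match, and the levels of both are uncertain. The parents went the other way. *Rps18* was at 189 CPM in code 9 and 993 CPM in code 1, and *Rpl26* at 179.9 and 988 CPM. *Rpsa* was at 45.6 and 78 CPM, a ratio of 0.584 (0.356 to 0.906) that does not reach the limit. The same split ran through the cells of code 9. *Gm10260* without *Rps18* was seen in 36 cells, both in 10, *Rps18* without *Gm10260* in 5 and neither in 2. In the 46 cells with a *Gm10260* UMI *Rps18* stood at 104 CPM, and in the 7 cells without one it stood at 935 CPM, near its level in code 1. *Rpl26*, which the split did not use, was at 101 CPM in the former and 868 CPM in the latter. In D6 PM code 5, described below, all 3 copies stood at higher levels than in code 9. Across the 28 other clusters of at least 30 cells in the 3 libraries, the highest *Gm10260* level was 25.4 CPM, in code 7 of the culture. Only 3 cells of all other culture clusters had 3 or more *Gm10260* UMIs, and 31 of the 53 code 9 cells did. Reads of a copy cannot be told apart in these counts from reads of a parent gene that carries the same bases, as in cells of another genotype, so that the values are counts assigned to the copies and not a measure of their transcription. Why these copies are counted in code 9 was not tested. The mESCs had been kept on feeder cells, and whether the cells of code 9 and of D6 PM code 5 derive from the mESCs was not tested either.

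Tendon genes were lower in code 9 or near the level of code 1. Of the 14 tendon genes that passed the filter, 0 were higher than in code 1, 8 were lower and the median log2 ratio was -1.33. *Scx* was at 178 CPM in code 9 and 2410.3 CPM in code 1, a ratio of 0.0737 (0.0583 to 0.092). Its 78 UMIs fell in 9 cells, with 33 and 22 of them in 2 cells that alone reached 2682 and 3915 CPM, and between 1 and 7 in each of the others. All 9 cells with an *Scx* UMI also had an *Rps18* UMI, while 38 of the other 44 cells had neither. Of the same 9 cells, 7 also had a *Gm10260* UMI, the 2 with the most *Scx* UMIs among them, beside 46 of all 53 cells. Thinned to 3000 UMIs per cell, which left out 17 shallow cells, 7 of 36 code 9 cells (19.4%, 8.19 to 36.0) and 91.3% of code 1 cells had an *Scx* UMI. The share was 9.44% (7.76 to 11.3) in code 3, a culture cluster with *Scx* at 70.7 CPM. The 829 *Scx* UMIs of code 3 fell in 235 of 1088 cells, and whether some come from free RNA was not tested. By its number of cells code 3 is cluster 2 of the paper, which the paper lists among the clusters expressing *Scx*. Code 3 was therefore not taken as a background free of *Scx* expression. The interval of code 9 covers the share of code 3. At 2000 UMIs the order turned, with 2 of 40 code 9 cells (5%, 0.611 to 16.9) and 7.26% of code 3 cells. Without thinning the shares were 17.0%, 92.9% and 21.6% in codes 9, 1 and 3, at median depths of 8100, 4918.5 and 10369.5 UMIs. The ScxGFP reporter had 0 UMIs in code 9, with a floor of 6.83 CPM (3 counts of the total) and an exact upper limit of 8.40 CPM. It was at 54.4 CPM in code 1. *Fbn2*, a microfibril protein, was at 36.4 against 721 CPM, *Postn*, a matricellular protein, at 492 against 2363 CPM, and *Fmod*, fibromodulin, at a single UMI (2.28 against 281 CPM). *Col5a2* (645 against 926 CPM), *Tnc* (335 against 447 CPM) and *Thbs2* (353 against 399.9 CPM) differed by less than 2-fold. Of the 7 cartilage genes that passed, 6 were lower with a median log2 ratio of -3.59, among them *Col2a1* (22.8 against 218 CPM), and *Sox9* did not reach the limit (86.6 against 108 CPM). All 5 sclerotome and somite genes that passed were lower, from *Twist1* (118 against 599 CPM) to *Pax9* (2.28 against 65 CPM).

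**Figure D2:**
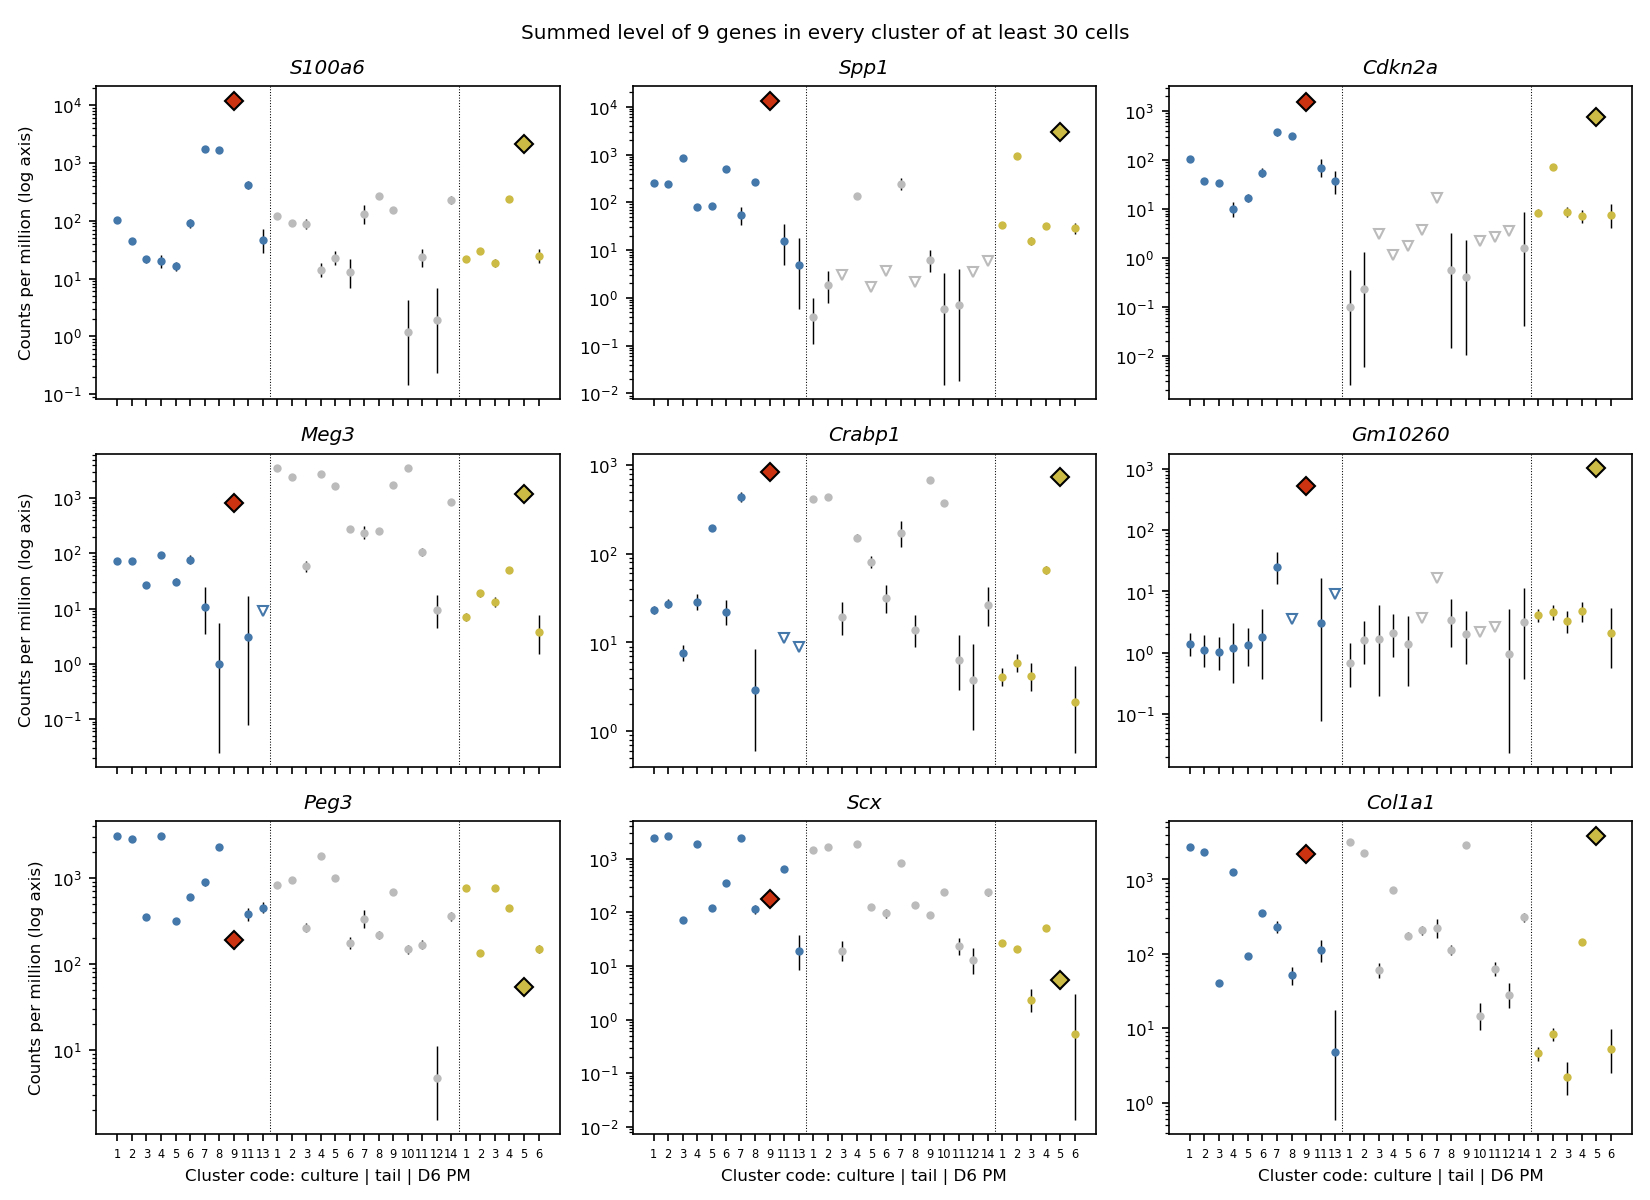
Summed level (CPM, log axis) of 9 genes in every cluster of at least 30 cells, by library and cluster code. Bars are exact 95% intervals of counting error, open triangles are upper limits where no UMI was found, the red diamond is code 9 of the culture and the outlined diamond is code 5 of D6 PM. *S100a6*, *Cdkn2a* and *Gm10260* peak in these 2 clusters, whereas *Scx* and *Peg3* are low in both.

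Of 18 collagen genes, 4 were higher and 4 were lower, shares near the 14.52% and 20.2% over all genes tested, with a median log2 ratio of -0.03. The higher ones were *Col5a3* (129.8 against 1.21 CPM), the microfibrillar collagen *Col6a1* (667 against 237 CPM), *Col16a1* and the basement membrane collagen *Col18a1* (1198 against 579 CPM). The lower ones included *Col14a1* (31.9 against 296 CPM) and *Col8a1* (157 against 477 CPM). All 5 small leucine-rich proteoglycans that passed were lower, with *Ogn*, osteoglycin, at 34.2 against 796 CPM. Of 29 elastic fibre and matricellular genes, 5 were higher, near the share over all genes, and 11 were lower. *Eln*, elastin, was at a single UMI (2.28 against 114 CPM), and its microfibril partners *Mfap2* and *Mfap4* were at 70.6 against 881 and 43.3 against 506 CPM. *Spp1*, osteopontin, a secreted phosphoprotein of bone and of injured tissue, was the most abundant of the higher genes at 13352 CPM against 251 CPM, a ratio of 53.1 (51 to 55.3). It was found in 46 cells, from 0 to 116629 CPM with a median of 3260.2, so that its level varied widely among them. *Thbs1*, thrombospondin-1, was at 371 against 91.3 CPM in 15 cells. None of the 12 collagen crosslinking and modifying genes was higher and 5 were lower, including the lysyl hydroxylase *Plod2* (244 against 688 CPM), while *Lox*, lysyl oxidase, differed by less than 2-fold. *Serpinh1*, the collagen chaperone, was lower at 669.6 against 1821 CPM.

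Genes of matrix turnover were more often higher. Of 12 genes of matrix proteases and their inhibitors that passed, 8 were higher and 1, *Serpinh1*, was lower. *Mmp3*, stromelysin-1, was at 881 CPM against 0.301 CPM, but its 387 UMIs were spread over only 14 cells, with 56.1% of them in 1 cell. *Plau*, urokinase, was at 128 against 1.81 CPM, and *Timp2*, a metalloproteinase inhibitor, at 1624 against 551 CPM in 51 cells. The metalloproteinases *Mmp2* and *Mmp14* differed from code 1 by less than 2-fold. Of 18 actin cytoskeleton genes, 4 were higher and 5 were lower, near the 14.52% and 20.2% over all genes tested. The smooth muscle type genes *Acta2* (75.2 against 400.4 CPM) and *Tagln* (72.9 against 499 CPM), which are used as markers of contractile myofibroblasts, were both lower, and the LIM protein genes *Crip1* and *Crip2* were higher (346 against 40 and 474 against 30.9 CPM).

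Most S100, annexin and galectin genes, and most lysosomal genes, were higher in code 9. Of 17 S100, annexin and galectin genes that passed, 12 were higher, 0 were lower and the median log2 ratio was 2.54. *Lgals3*, galectin-3, was at 1289 against 1.45 CPM, a ratio of 891 (593 to 1403), in 44 cells. *S100a13* was at 474 against 26.2 CPM, *Anxa1* at 601 against 90.8 CPM and *S100a10* at 1362 against 327 CPM. *Anxa5* and *Anxa6* were within 2-fold of code 1. Of 20 lysosomal genes, 18 were higher, 0 were lower and the median log2 ratio was 2.29. The protease *Ctsl* was at 8839.8 against 559 CPM in 52 cells, *Ctsb* at 2574 against 165 CPM, *Ctsd* at 2704 against 353 CPM and *Psap*, prosaposin, at 1499 against 150.3 CPM. *Ctsk*, the protease that degrades collagen in osteoclasts and fibroblasts, was at 487 against 27.5 CPM. Lysosomal genes are also abundant in macrophages. Without the 4 cells that carry macrophage genes, described below, 15 of 19 were still higher, 0 were lower and the median was 1.62. Thinned to 3000 UMIs, *Lgals3* was seen in 80.6% of 36 code 9 cells, 0.385% of code 1 cells and 10.9% of code 3 cells. *Ctsb* was seen in 91.7%, 38.3% and 26.5% of these cells. Without thinning the shares in codes 9, 1 and 3 were 83.0%, 0.540% and 26.5% for *Lgals3* and 92.5%, 53.3% and 59.7% for *Ctsb*.

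Cell cycle genes moved in opposite directions by their role. Of 22 proliferation genes that passed against code 1, 19 were lower, with a median log2 ratio of -2.78. *Mki67* was at 20.5 against 133 CPM, *Top2a*, a DNA topoisomerase of dividing cells, at 18.2 against 142 CPM and the replication helicase subunit *Mcm3* at 4.56 against 101 CPM. At 3000 UMIs per cell *Top2a* was seen in 1 of 36 code 9 cells (2.78%, 0.0703 to 14.53) and in 20.9% of code 1 cells, and without thinning in 9.43% and 29.6%. *Ccnd1*, cyclin D1, was the 1 proliferation gene that was higher, at 831 against 104 CPM. Of 22 cell cycle inhibitors and p53 targets, 13 were higher and 3 were lower, beside 14.52% and 20.2% over all genes tested. Their median log2 ratio was 1.21. *Cdkn2a*, whose locus encodes p16 and p19, was at 1553 against 104 CPM, a ratio of 14.9 (13.7 to 16.3), in 46 cells. At 3000 UMIs per cell it was seen in 31 of 36 code 9 cells (86.1%, 70.5 to 95.3), 13.5% of code 1 cells and 8.79% of code 3 cells. Without thinning these shares were 86.8%, 18.2% and 25.6%. The counts do not separate the 2 products of this locus. *Cdkn1a*, p21, was at 2125 against 524 CPM, *Cdkn2b*, p15, at 435 against 115 CPM and *Mdm2*, the p53 ubiquitin ligase, at 998 against 91 CPM. *Ccng1*, *Phlda3*, *Perp* and *Fas*, further p53 targets, were also higher, at 806, 606, 194 and 72.9 CPM against 180.2, 214, 8.26 and 5.36 CPM. The lower genes were *Cdkn1b*, the imprinted *Cdkn1c* (292 against 1449 CPM) and *Plk2*. *Bax*, *Zmat3*, *Aen* and *Ei24* were within 2-fold of code 1.

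**Figure D3:**
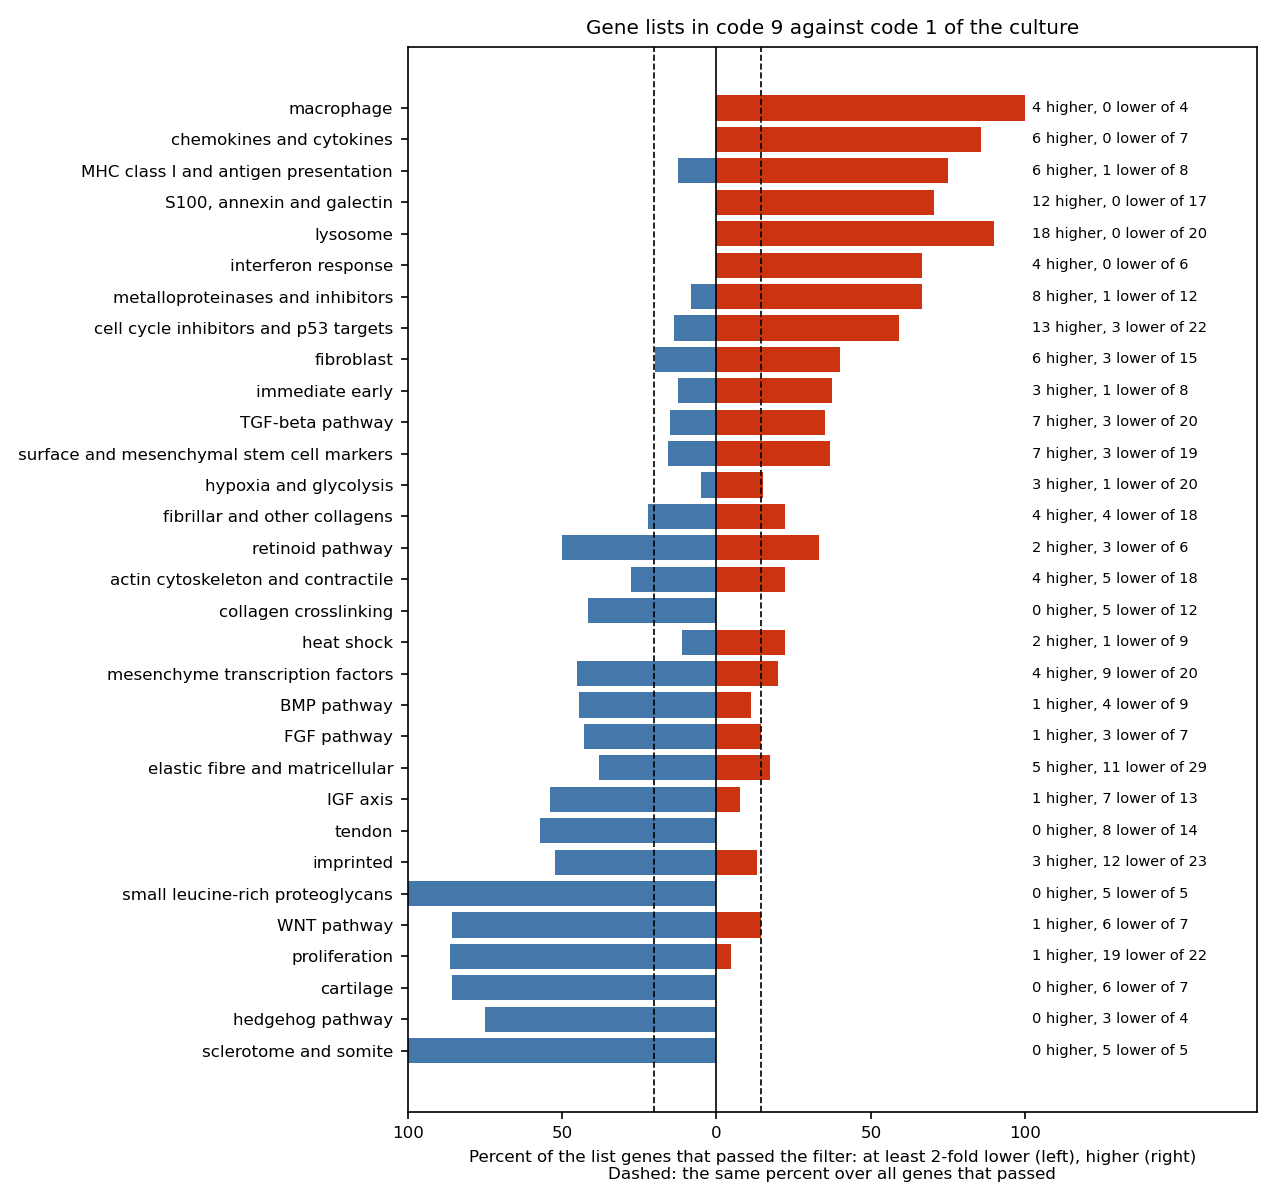
Percent of the genes of each list that passed the filter and were at least 2-fold higher (red, right) or lower (blue, left) in code 9 than in code 1 of the culture, with counts at the right and lists ordered by median ratio. Dashed lines mark the percent over all 4484 genes tested, 14.52 higher and 20.2 lower. Lysosomal (18 of 20) and S100, annexin and galectin genes (12 of 17) lie far to the right and proliferation genes (19 of 22 lower) far to the left.

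Imprinted genes, which are expressed from the maternal or the paternal copy only, were mostly lower. Of 23 that passed, 12 were lower, beside 20.2% over all genes tested, and 3 were higher, near the 14.52% over all genes. The median log2 ratio of the 23 was -1.34. The paternally expressed *Peg3* was at 189 CPM in code 9 and 3103 CPM in code 1, *Mest* at 100.2 against 2187 CPM, *Dlk1* at 25.1 against 830.0 CPM, *Nnat* at 13.7 against 701 CPM and *Igf2* at 18.2 against 161 CPM. Maternally expressed genes were found on both sides. *H19* (364 against 1465 CPM) and *Cdkn1c* were lower, *Grb10*, which is maternally expressed in most tissues, was lower as well, and *Meg3* and *Rian* (63.8 against 13.3 CPM), transcripts of the same locus as *Dlk1*, were higher with *H13*. *Gnas*, *Igf2r* and *Impact* were within 2-fold of code 1. *Peg3* was seen in 11 of 36 code 9 cells (30.6%, 16.4 to 48.1) at 3000 UMIs and in 99.2% of code 1 cells. Without thinning the shares were 34.0% and 98.6%. It had no UMI in the median cell of code 9 and reached 1602 CPM in the highest.

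Signaling genes of the pathways used in the protocol differed in direction. Over all genes tested against code 1, 14.52% were higher and 20.2% were lower. Of the hedgehog genes, the targets *Ptch1* (15.9 against 234 CPM) and *Hhip* (2.28 against 99.3 CPM) and the co-receptor *Gas1* (11.4 against 116 CPM) were lower and *Smo*, the protein that SAG activates, was at 47.8 against 88 CPM. *Gli1*, a further target, had 0 UMIs in code 9, with a floor of 6.83 CPM, and was at 22.5 CPM in code 1. Of 20 TGFβ pathway genes, 7 were higher and 3 were lower, the latter near the share over all genes. The ligand *Tgfb1* (228 against 61.5 CPM), the receptor *Tgfbr2* (191 against 66.9 CPM) and the latent TGFβ binding protein *Ltbp2* (88.8 against 8.2 CPM) were higher, while *Smad7* and *Pmepa1*, feedback inhibitors of the pathway, were within 2-fold of code 1. *Fst*, follistatin, which binds activins and related ligands, the follistatin-like gene *Fstl1* and the SMAD repressor *Skil* were lower. Of 9 BMP genes, 4 were lower, among them *Bmp4* (2.28 against 108 CPM), and the BMP antagonist *Grem1* was higher at 241 against 0.603 CPM in 24 cells. Of 7 WNT genes, 6 were lower and *Wnt5a* was higher (86.6 against 21.2 CPM). Of 13 genes of the IGF axis, 7 were lower, *Igf1* (75.2 against 293 CPM) and *Igfbp5* (264 against 1394 CPM) among them, and *Igfbp6* was higher. In the retinoid list, *Crabp1*, a cellular retinoic acid binding protein, was at 840.5 against 23.2 CPM, a ratio of 36.2 (31.3 to 41.9), in 35 cells, and *Crabp2* was higher too, while *Aldh1a3* and *Rara* were among the lower genes.

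Of 20 mesenchymal transcription factors, 4 were higher and 9 were lower, beside 14.52% and 20.2% over all genes tested. The limb and craniofacial mesenchyme gene *Prrx1* (305 against 147 CPM), *Prrx2*, *Klf4* and *Zeb2* (118 against 20.3 CPM) were higher. *Foxd1*, *Nr2f2*, *Ebf1* and *Foxp1* were among the lower ones, with *Foxp1* at 102 against 398 CPM. Immune genes were higher in code 9 also beyond the macrophage list. Of 8 genes of MHC class I and antigen presentation, 6 were higher, including *B2m* (979 against 117 CPM), *H2-K1* (280.2 against 49.7 CPM) and *H2-D1* (426 against 4.46 CPM, a ratio of 95.5 (72.6 to 127)), and 1, the chaperone *Calr*, was lower. Class I genes are highly similar to each other, so that their single levels are uncertain. Of 7 chemokines and cytokines, 6 were higher, among them *Ccl2* (143 against 10.5 CPM), *Ccl7* and *Csf1*, each in 12 cells, and *Cxcl12* was within 2-fold of code 1. Of 19 surface and mesenchymal stem cell genes, 7 were higher and 3 were lower, the latter near the share over all genes. *Ly6a*, Sca-1, was at 182 against 0.181 CPM in 12 cells, the hyaluronan receptor *Cd44* at 255 against 4.4 CPM in 32 cells, and the adhesion protein *Cdh11* was lower at 153 against 623 CPM.

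Not all cells of code 9 were alike. Macrophage genes were carried by 4 of the 53 cells, each with UMIs of 5 to 7 of the 9 genes on the list, at depths of 17077, 9937, 8100 and 5126 UMIs. No other cell of the culture had UMIs of 3 or more of these genes. *Tyrobp*, an adaptor protein of myeloid cells, had 225 UMIs in these 4 cells and 0 in the other 49, *Ctss* 143 and 0, and *Lyz2*, lysozyme, 483 and 1, with 88.6% of its UMIs in 1 cell. *Col1a1* had 2 UMIs in these 4 cells and 949 in the others, *Cdkn2a* 2 and 680, and *S100a6* 47 and 5181. *Adgre1* and *C1qb* of the list had no UMI. The macrophage genes summed to 2237 CPM in code 9 and 5.55 CPM in code 1. Without these 4 cells, 659 genes were higher and 863 lower than in code 1, of which 591 and 833 were among the genes called with them, and none had the opposite direction. Higher were then 13 of 17 S100, annexin and galectin genes, 13 of 22 cell cycle inhibitors and p53 targets and 6 of 8 MHC class I genes, and 19 of 22 proliferation genes were lower. The macrophage list, with 4 of 4 higher before, had no gene left that passed, and 6 of 21 mesenchymal transcription factors were higher in place of 4 of 20. The ratio of *S100a6* was then 127 and that of *Col1a1* 0.868. *Gm10260* had 6 UMIs in the 4 cells, all in 2 of them, and *Rps18* was seen in the other 2 and in 1 of those.

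The cells also varied by *Meg3*, *Crabp1* and depth. *Meg3* and *Crabp1* were both seen in 15 cells, *Meg3* alone in 7, *Crabp1* alone in 20 and neither in 11 of the 53. In the 36 cells at or over 3000 UMIs these counts were 13, 7, 8 and 8, so that the excess of cells with *Crabp1* alone lay mostly in the shallow cells. Each of the 22 cells with *Meg3* also had a *Gm10260* UMI, as did 46 of all 53 cells. The 17 cells under 3000 UMIs had higher relative levels of *S100a6* (26784 against 10877 CPM in the 36 deeper cells) and *Lgals1* (8155 against 3736 CPM). *Crabp1* (3585 against 650.3 CPM) and *Gm10260* (1160 against 470 CPM) were also higher in them. *Spp1* (4851 against 13941 CPM) and *Meg3* (70.3 against 872 CPM) were lower. *Cdkn2a* (2425 against 1493 CPM) and *Col1a1* (1757 against 2194 CPM) differed less. The 4 cells with macrophage genes were all among the deeper ones, and the part of these cells and of depth in the differences was not tested. Genes confined to few cells were *Pomc*, with 98.6% of its UMIs in 1 cell, *Penk*, with 89.3% in 1 cell, and *Fabp4*, a fatty acid binding protein, with UMIs in 6 cells.

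Against all other culture cells, 746 genes were higher (15.8% of 4720 tested) and 1168 were lower (24.7%, or 40.6% in either direction). Relative to the median gene, 956 were higher and 881 lower. Many of the lower genes belong to other clusters of the culture. *Dppa5a* (6.83 against 1047 CPM) and *Pou5f1* (2.28 against 181 CPM), genes of pluripotent cells, were among the 10 with the largest folds, as were the embryonic globins *Hba-x* and *Hbb-y* and the cell division gene *Prc1*. In total 6 of 7 pluripotency genes were lower and 28 of 30 proliferation genes. Higher were 15 of 17 S100, annexin and galectin genes, 18 of 20 lysosomal genes and 11 of 12 genes of matrix turnover. *Scx* was lower against this background too (178 against 1487 CPM). Of the 11 tendon genes that passed here, 4 were lower and 0 were higher. Their median log2 ratio was 0.098, against -0.26 over all genes tested.

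**Figure D4:**
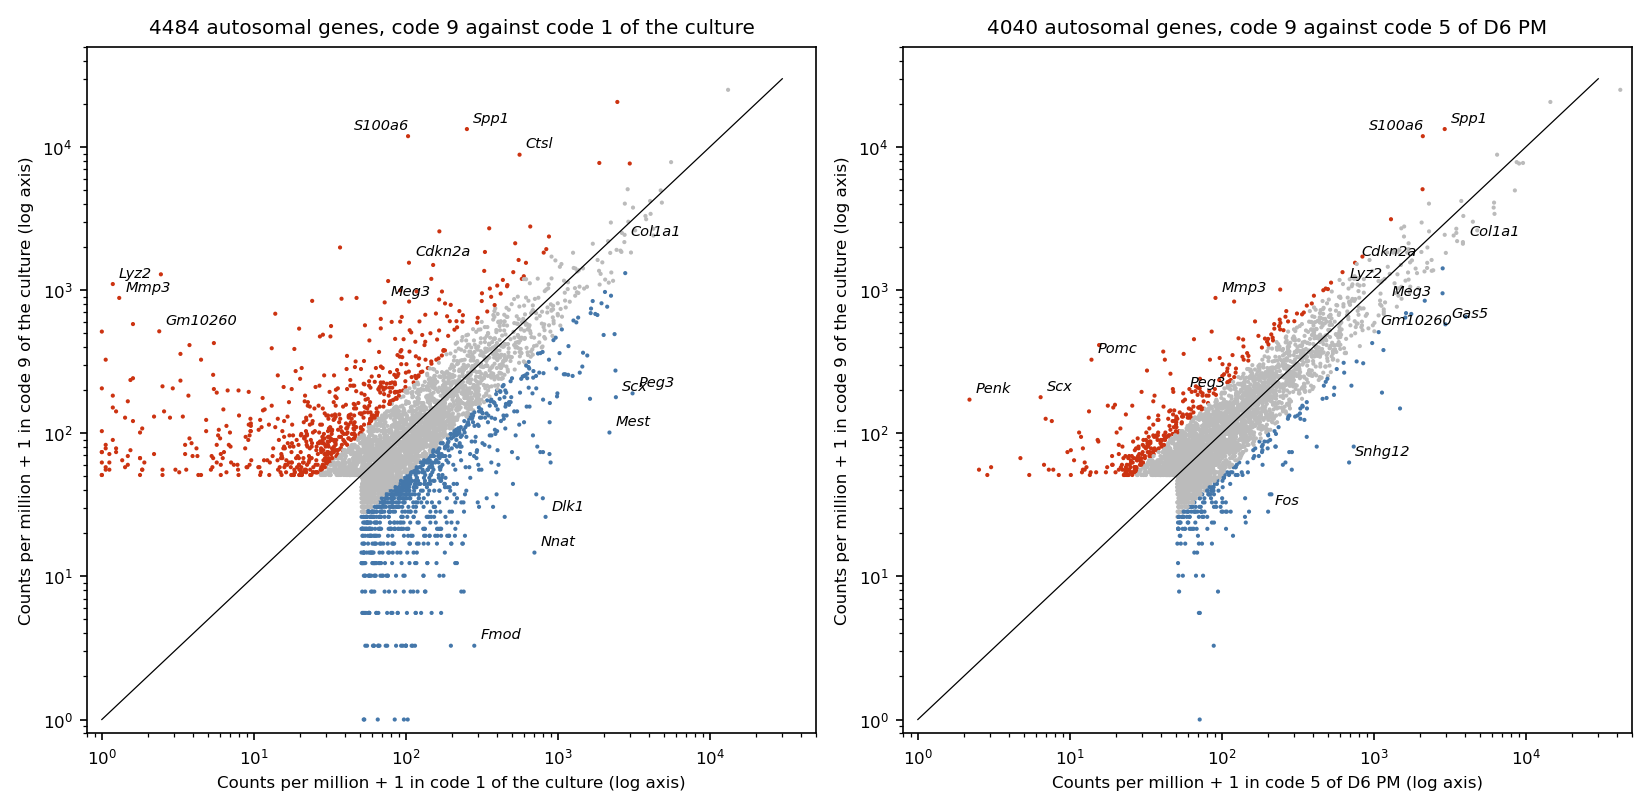
Level of each tested autosomal gene (CPM + 1, log axes) in code 9 of the culture against code 1 of the culture (left, 4484 genes) and against code 5 of D6 PM (right, 4040 genes). Genes at least 2-fold higher in code 9 are red, those at least 2-fold lower are blue, and the line marks equal levels. The points lie closer to the line on the right, where 13.5% of genes were called, than on the left, where 34.7% were.

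The profile of code 9 was set beside every other cluster of at least 30 cells. Over 8694 genes, the cluster most like it was not in the culture but was code 5 of D6 PM, with 662 of 5954 cells (11.1%) and a Spearman's rho of 0.920. Code 1 of the culture followed with 0.773, culture codes 4 and 11 with 0.730 each, and code 9 of the tail, whose 157 cells carry the same cluster code, with 0.720. The lowest rho was 0.428, for tail code 10. These values are across genes, which are not independent, and clusters of the same library share its preparation and sequencing. The rho with D6 PM code 5 was 0.920 also without mitochondrial, ribosomal protein and cell cycle genes, and Pearson's r of log2 levels was 0.935.

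Against D6 PM code 5, 321 genes were higher in code 9 (7.95% of 4040 tested) and 225 were lower (5.57%, or 13.5% in either direction), and the median log2 ratio was 0.01. This comparison was added after the likeness of the profiles was known, and is between libraries of different days. Most features above were shared by both clusters. In D6 PM code 5, *Gm10260* was at 1008 CPM, *Gm15772* at 282 CPM, *Rpsa-ps10* at 1522 CPM and *Rps18* at 103 CPM. *Lgals3* was at 1430.3 CPM, *Vim* at 9589 CPM, *Col1a1* at 3858 CPM, *Meg3* at 1185 CPM and *Crabp1* at 742 CPM. *Peg3* (54.8 CPM), *Mest* (10.5 CPM) and *Dlk1* (15.6 CPM) were low, and ScxGFP had 0 UMIs, with a floor of 0.509 CPM.

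Some genes separated code 9 from D6 PM code 5. *S100a6* was 5.67 (5.49 to 5.85) times as high in code 9 (11908 against 2101 CPM), and *Spp1* 4.56 (4.43 to 4.7) times (13352 against 2928 CPM). *Scx* was at 178 against 5.43 CPM, although most of its UMIs came from the 2 cells named above. *Tfpi2*, an inhibitor of serine proteases, was at 412 against 14.6 CPM in 27 cells, *Thbs1* at 371 against 40.2 CPM, *Mgp*, matrix Gla protein, at 273 against 31.2 CPM and the TGFβ feedback gene *Pmepa1* at 1009 against 241 CPM. *Ccnd1* was at 831 against 119.5 CPM. Of 21 cell cycle inhibitors and p53 targets, 8 were higher in code 9 and 1 was lower, with *Cdkn2a* at 1553 against 751 CPM, *Cdkn2b* at 435 against 198 CPM and *Mdm2* at 998 against 464 CPM. *Cdkn1a* was within 2-fold (2125 against 1693 CPM). Of 18 S100, annexin and galectin genes, 5 were higher and 0 were lower, and of 16 surface and mesenchymal stem cell genes, 9 were higher and 0 were lower. The lysosomal list was near its D6 PM level, with 3 of 21 higher. On the lower side stood 7 of 12 immediate early genes, with *Fos* at 27.3 against 201 CPM, 6 of 21 hypoxia and glycolysis genes, with *Gapdh* at 681 against 1764 CPM, and 3 of 9 MHC class I genes, with *H2-D1* at 426 against 975 CPM. The small nucleolar RNA host genes *Snhg1* (148 against 1487 CPM) and *Snhg12* (61.5 against 687 CPM) were lower as well. D6 PM code 5 held 14 cells with 3 or more macrophage genes.

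**Figure D5:**
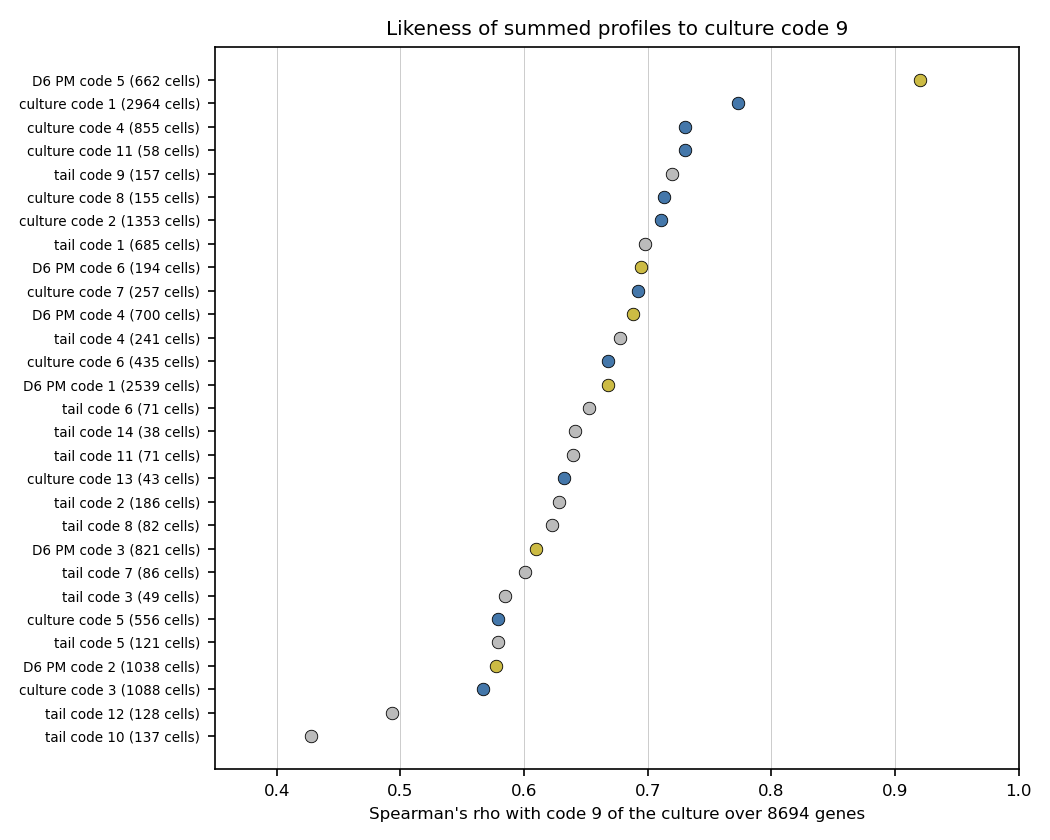
Spearman's rho between the summed profile of culture code 9 and that of each other cluster of at least 30 cells, over 8694 genes, colored by library (blue for the culture, grey for the tail, yellow for D6 PM). The point of D6 PM code 5 stands at 0.920, apart from culture code 1 at 0.773 and all others.

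The tail cells that share the cluster code were less like the code 9 cells of the culture. Of 4739 genes tested, 780 were higher in the culture cells (16.5%) and 1107 were lower (23.4%, or 39.8% in either direction). Relative to the median gene, 978 were higher and 856 lower. *Lgals1* (4022 against 3113 CPM) and *Col1a1* (2166 against 2870.3 CPM) were within 2-fold, *Crabp1* was as well (840.5 against 687 CPM), and *Meg3* was lower in the culture cells (820.0 against 1732 CPM). *S100a6* (11908 against 153 CPM), *Spp1* (13352 against 6.17 CPM), *Cdkn2a* (1553 against 0.411 CPM) and *Gm10260* (515 against 2.06 CPM) were higher. Of 21 cell cycle inhibitors and p53 targets, 17 were higher and 1 was lower, of 14 immediate early genes 0 were higher and 10 were lower, and of 26 mesenchymal transcription factors 0 were higher and 16 were lower. The tail cluster held 25 cells with 3 or more macrophage genes. The culture and the embryo also differ in origin and age and may differ in dissociation, and these cannot be told apart with 1 library of each.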

How the data were processed

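Libraries of the D10 culture (7821 cells), E14.5 tail (2052 cells) and D6 PM (5954 cells) were analysed. The deposited values are whole, unnormalized UMI counts, which the authors made with Cell Ranger from 10x 3′ v3 libraries, ignoring reads that map to several genes. The authors had removed cells above 7.5% mitochondrial transcripts and the lowest and highest 2% by depth, and assigned culture cells to clusters of the tail with Seurat 3.0. The genome build is not given in the sources used here. Between libraries, 4 (culture and tail), 10 (culture and D6 PM) and 3 (tail and D6 PM) cell barcodes were shared.

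Cells of code 9 were taken as deposited, and counts were summed per cluster (SciPy 1.17.1 and NumPy 2.4.6 under Python 3.11.15). Of 27755 genes, 26471 autosomal ones were used, and 1072 genes of the sex chromosomes and mitochondria and 212 without a known chromosome were left out. Intervals are exact (Poisson for levels, conditional binomial for ratios, Clopper-Pearson for shares) at 95%. With 0 UMIs in a group, a floor of 3 counts over the group was used. For shares, cells were thinned to 3000 UMIs (seed 1), leaving out 17, 369 and 7 cells of codes 9, 1 and 3. Scrublet in Scanpy 1.11.5, at an expected rate of 6%, called 116, 9 and 81 doublets in the culture, tail and D6 PM, which were kept. The calling rule was also run on simulated data, without a result reported here. Figures were drawn with Matplotlib 3.10.9. Named genes were the 4 markers, tendon genes, members of fixed lists and, for each direction, the 15 genes of largest ratio against code 1 (10 against all other cells) at 100 CPM or more in the higher group, and those against D6 PM code 5 were chosen after their values were seen. Some genes of the lists are not reported here. The members and lists were chosen with earlier results of these data known. Alternatives varied thresholds, cells left out, the total and the mean over cells. Leaving out the macrophage-gene or shallow cells, and the comparison with D6 PM code 5, were chosen after seeing the data. No test across conditions was made.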

Additional observations from a re-analysis of the deposited data

How the results depend on the processing

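No paired analysis was possible because each condition is 1 library. Called genes in either direction, 1556 against code 1, 1914 against all other culture cells, 1887 against the tail cluster and 546 against D6 PM code 5, depended on the thresholds. A 4-fold limit gave 594, 754, 738 and 92, a minimum of 20 CPM gave 2793, 3318, 3441 and 1177, a minimum of 200 CPM gave 423, 519, 500.0 and 142, and no filter gave 9720, 14824, 6303 and 5577. The share of higher genes among those called was 41.8%, 39.0%, 41.3% and 58.8%. Taken relative to the median gene it was 55.9%, 52.0% and 53.3% in the first 3, at 200 CPM it was 51.4% for the tail, without a filter it was 74.5% and 80.1% in the first pair, and by mean over cells it was 47.2% against D6 PM. By mean over cells the ratios to code 1 were 203 for *S100a6*, 2.08 for *Lgals1*, 0.698 for *Col1a1* and 7.70 for *Meg3*, so that *Lgals1* passed the 2-fold limit, and the list medians were -4.29 for cartilage, -2.39 for proteoglycans, -1.31 for transcription factors and -0.45 for immediate early genes. Without cells under 1000 genes *S100a6* was at 109 and *Lgals1* at 1.37, and without cells under 3000 UMIs at 106 and 1.35. Without the 5 deepest cells *S100a6* was at 109 and *Col1a1* at 0.880, and the medians were -2.68 for proteoglycans and 8.19 for macrophage genes. Without the 4 cells with macrophage genes *S100a6* was at 127, *Lgals1* at 1.55, *Col1a1* at 0.868 and the lysosomal median at 1.62. The WNT median was -1.37 with mitochondrial and ribosomal genes out of the total. Thinned shares were 5% for *Scx* and 40.0% for *Gm10260* at 2000 UMIs, and 88.2% for *Col1a1* and 44.1% for *Gm15772* at 5000 UMIs. The balance of higher and lower genes thus turned against code 1 and against all other culture cells under the median and unfiltered settings. It also turned against the tail cluster under the median setting and at 200 CPM, and against D6 PM code 5 by mean over cells. The sign of the immediate early median turned by mean over cells, and the causes were not tested. In the 53 cells, with 439035 UMIs, 1 UMI is 2.28 CPM, and the floor of 3 counts used at 0 UMIs is 6.83 CPM.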

Other observations

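*Hox* genes, which mark position along the body axis by their number, were sparse in code 9. Of 39 in the file, 28 had a UMI, with 172 UMIs in 34 of the 53 cells. Groups 1 to 5 summed to 97.9 CPM in code 9, 319 CPM in code 1, 87.6 CPM in tail code 9 and 85.6 CPM in D6 PM code 5. Groups 6 to 9 summed to 241 CPM, 153 CPM, 216 CPM and 185 CPM in the same order. Groups 10 to 13, the most posterior, summed to 52.4 CPM, 31.5 CPM, 710.2 CPM and 79.5 CPM, and were seen in 10 cells of code 9.

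Of 20 hypoxia and glycolysis genes, 3 were higher, near the 14.52% over all genes tested, and 1 was lower, beside 20.2%. *Ndrg1* was at 253 against 28 CPM and *Pkm*, pyruvate kinase, at 1624 against 1827 CPM. Of 9 heat shock genes, 2 were higher and 1 was lower, near the 34.7% called in either direction over all genes. *Hmox1*, the heme-degrading enzyme of the oxidative stress response, was higher at 567 against 52.9 CPM in 30 cells. Among genes of lipid storage, *Plin2*, a lipid droplet protein, was at 599 against 79.7 CPM in 40 cells, and *Cd36*, a fatty acid receptor, had UMIs in 2 cells only.

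The noncoding *Gm26870* on chromosome 9 was at 579 against 0.603 CPM in 19 cells and at 220.2 CPM in D6 PM code 5. *Gpnmb*, a glycoprotein of macrophages and other cells, had UMIs in 16 cells, more than the 4 with macrophage genes. *Npy*, neuropeptide Y, was at 141 against 0.241 CPM with UMIs in 5 cells, among them 3 of those 4.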
